A study of Homo sapiens with 6 samples.

Results

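Described here are 48 genes of mitotic entry, the spindle and cytokinesis in A375 cells, an established human melanoma line with an activating BRAF mutation, after 72 h with either of 2 inhibitors or with vehicle. The genes are a named list of mitotic kinases, B cyclins, spindle proteins, checkpoint proteins and cytokinesis proteins. Kinesin motors, kinetochore proteins and condensins were left out of the list. Each name was matched through its NCBI Gene ID. All 48 were found among the 28395 gene IDs of the deposited tables, and all 48 passed the filter on low counts that left 16381 genes for testing. Of the 6 RNA-seq libraries, 2 came from cells given 1 µM palbociclib, a CDK4 and CDK6 inhibitor, 2 from cells given 500 nM GSK3326595, a PRMT5 inhibitor, and 2 from cells kept in 0.01% DMSO. In the sample titles palbociclib appears as PD991 and GSK3326595 as CTX. The labels name no genetic alteration, and all 3 groups are the same line in RPMI medium. Whether the 2 replicates of a group were grown separately is not stated, and the p-values rest on a spread between libraries that may be technical.

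Entry into mitosis is driven by CDK1 bound to a B cyclin. Its inhibitory phosphates are removed by CDC25 phosphatases, and Aurora and Polo-like kinases carry the cell into spindle assembly. The spindle assembly checkpoint holds the cell until chromosomes are attached, separase then opens cohesin, and a contractile ring under RhoA control divides the cell. Transcripts of these proteins are low in G1, when CDK4 and CDK6 act on RB, and peak in G2 and M. Many are repressed in G1 by the DREAM complex, whose MuvB core binds a promoter element called CHR. The same element is read in G2 by MuvB with MYBL2 and FOXM1, and CCAAT boxes, bound by NF-Y, often lie just upstream of it. PRMT5 places symmetric dimethyl marks on arginines of histones and of Sm splicing proteins.

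Total counts were between 16589153 and 20842099 per library. The lowest count behind any value of the 48 genes was 97, for CDC25C, and the highest was 11884, for TOP2A. Of 7 melanocyte markers, MITF was at 57.4 CPM or more and SOX10 at 122 CPM or more in each library, while PMEL, MLANA, TYR and DCT were below 3 CPM in each. S100B had 10.6 and 10.9 CPM with palbociclib, 3.44 and 3.96 CPM with GSK3326595, and 3.68 and 3.12 CPM in DMSO, and it rose with palbociclib (log2 fold change 1.66 ± 0.188, SE; adjusted p = 3.15e-05 in edgeR). CPM is the count per 1000000 of the TMM-adjusted library total. Summed over the 7 markers, the level was 284 to 311 CPM with palbociclib, 209 to 261 CPM with GSK3326595 and 228 to 257 CPM in DMSO. The 5 blood cell markers summed to between 2.89 and 4.19 CPM over the 6 libraries, and 4 of the 5 stayed under 1 CPM in each. The 5 fibroblast and endothelial markers, with most of the level from COL1A1, summed to 8.83 to 10.4 CPM with palbociclib, 28.9 to 33.3 CPM with GSK3326595 and 17.3 to 18.3 CPM in DMSO, with DCN and CDH5 under 1 CPM in each library. Of 5 epithelial markers, KRT8 and KRT18 were high in every group, and the summed level was 610 to 688 CPM with palbociclib, 621 to 779 CPM with GSK3326595 and 682 to 754 CPM in DMSO. The part of these marker levels in the results was not tested.

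Each of the 48 genes was lower with palbociclib than in DMSO, and all but BUB3 were called lower with GSK3326595. With palbociclib 48 of 48 genes fell at an edgeR adjusted p under 0.05, where 20.2% of all genes tested were called lower. With GSK3326595 47 of 48 fell, where 10.2% of all genes tested were called lower. None of the 48 was called higher in either comparison, where 19.3% and 8.58% of all genes were called higher. The median log2 fold change of the 48 genes was -1.26 with palbociclib and -0.73 with GSK3326595, beside -0.02 with palbociclib and -0.0011 with GSK3326595 over all genes tested. The 2 comparisons share their DMSO libraries. The 48 genes were chosen with earlier results of these data known, so these counts describe the list and are not an independent test.

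Larger falls were more frequent with palbociclib. A fall by a log2 of at least 1 was seen in 38 of the 48 genes with palbociclib, against 4.66% of all genes tested, and in 9 of the 48 with GSK3326595, against 1.6% of all genes. Fold changes of single genes ran from -1.98 for NEK2 to -0.31 for CDC25B with palbociclib, and from -1.30 for NEK2 to -0.14 for BUB3 with GSK3326595. In all 48 genes both treated libraries were below both DMSO libraries, for either inhibitor. Such a separation was seen in 37.4% of all genes for palbociclib and in 29.7% for GSK3326595, and the opposite one, seen in none of the 48, in 35.1% and 27.6%. In bulk RNA, fewer cells in G2 and M and less of these RNAs per cell cannot be told apart.

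Summed over the 48 genes, the level was 3099.8 and 3311 CPM with palbociclib, 4489 and 4382 CPM with GSK3326595, and 7103 and 7816 CPM in DMSO. The palbociclib libraries were lowest, the GSK3326595 libraries lay between, and no groups overlapped. The sums averaged 3205 ± 149 CPM with palbociclib, 4436 ± 76.0 CPM with GSK3326595 and 7459 ± 504 CPM in DMSO (SD, n = 2 each). The two-sided exact permutation p was 0.333 for each pair of groups, the smallest that 2 against 2 libraries allow. Of the 48 genes, 44 were higher in DMSO replicate 2 than in DMSO replicate 1, where 49.1% of all genes tested were. The median difference between those libraries was 0.15 on the log2 scale. Within the treated groups, 34 of the 48 were higher in palbociclib replicate 2 (49.3% of all genes) and 11 of the 48 in GSK3326595 replicate 2 (50.2% of all genes), with median differences of 0.09 and -0.05. Without DMSO replicate 2 the median log2 fold change of the 48 genes was -1.16 with palbociclib and -0.64 with GSK3326595, and without DMSO replicate 1 it was -1.37 with palbociclib and -0.84 with GSK3326595.

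**Figure D1:**
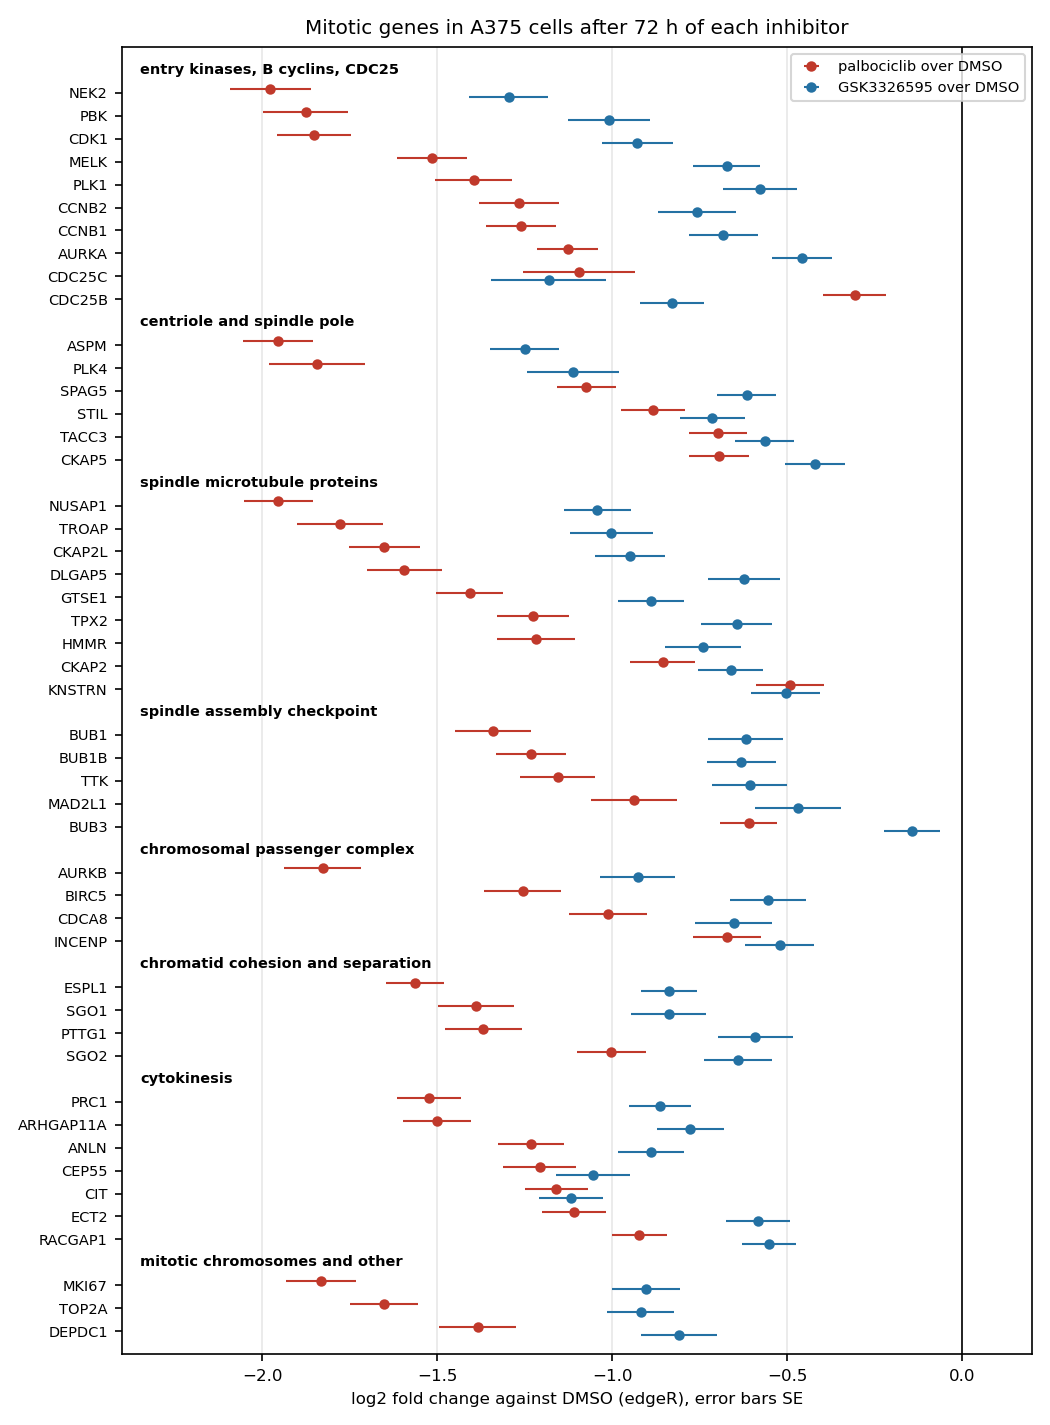
Log2 fold change of each of the 48 genes (horizontal axis) for palbociclib over DMSO (red) and GSK3326595 over DMSO (blue), grouped by role, with SE as error bars from the edgeR fit to 6 libraries. Every point lies below 0; palbociclib values run from -1.98 to -0.31 and GSK3326595 values from -1.30 to -0.14.

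Promoter sequences were examined because the genes moved together. RefSeq promoter windows (GRCh38.p14, from 250 bases before to 50 after each annotated start) were found for 40 of the 48 genes. AURKA, BIRC5, BUB3, PBK, RACGAP1, TPX2, TROAP and TTK had no entry. A CHR element, written as TTTGAA or TTCGAA on either strand, was present in 29 of the 40 genes (72.5%). It was present in 1979 of 12426 other genes tested (15.9%) and in 19.5% of all genes in the promoter table. A CCAAT box, read as CCAAT on either strand, was present in 32 of 40 (80.0%), beside 42.6% of other genes tested and 39.7% of all genes in the table. Together the elements were present in 25 of 40 (62.5%), beside 6.57% and 7.85%. A gene with several starts was counted when any of its windows held the letters, and 8 of the 40 have several. A match describes letters in a window and is not shown to be a bound site.

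Many of the CHR matches lay close to the start. In 13 of the 40 genes (32.5%) a match began 15 to 35 bases before an annotated start, a window chosen after the positions were seen, and in 1.54% of all genes in the table. Of these 13 genes, 6 are shown by the 60 bases before the start, 5′ to 3′ in the direction of the gene, with CHR and CCAAT matches in capitals (CCAAT read from the other strand is ATTGG). They are PLK1 (chr16:23678829-23678888, plus strand), CCNB2 (chr15:59105086-59105145, plus strand), ESPL1 (chr12:53268239-53268298, plus strand), BUB1B (chr15:40161009-40161068, plus strand), PRC1 (chr15:90994536-90994595, minus strand) and MKI67 (chr10:128126424-128126483, minus strand).
PLK1: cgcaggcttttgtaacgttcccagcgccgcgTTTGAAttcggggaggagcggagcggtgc
CCNB2: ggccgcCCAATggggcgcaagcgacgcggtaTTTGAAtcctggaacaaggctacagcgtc
ESPL1: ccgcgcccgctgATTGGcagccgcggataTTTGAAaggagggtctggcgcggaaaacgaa
BUB1B: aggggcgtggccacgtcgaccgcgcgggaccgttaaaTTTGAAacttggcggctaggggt
PRC1: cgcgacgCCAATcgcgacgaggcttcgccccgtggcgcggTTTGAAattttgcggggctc
MKI67: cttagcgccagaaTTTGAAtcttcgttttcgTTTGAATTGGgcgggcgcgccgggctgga
In MKI67 the second CHR match shares its last base with an ATTGG, so the capitals run together.

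The 150 bases before the most upstream start are shown for the 2 genes with the largest and the 2 with the smallest fall under palbociclib among those in the table, and for CCNB1 and CDK1. They are NEK2 (chr1:211675622-211675771, minus strand), NUSAP1 (chr15:41332731-41332880, plus strand), CDC25B (chr20:3786801-3786950, plus strand), KNSTRN (chr15:40382571-40382720, plus strand), CCNB1 (chr5:69167000-69167149, plus strand) and CDK1 (chr10:60778181-60778330, plus strand).
NEK2: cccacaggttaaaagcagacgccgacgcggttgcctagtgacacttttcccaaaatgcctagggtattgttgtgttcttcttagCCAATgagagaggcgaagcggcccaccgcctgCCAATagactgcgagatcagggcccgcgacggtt
NUSAP1: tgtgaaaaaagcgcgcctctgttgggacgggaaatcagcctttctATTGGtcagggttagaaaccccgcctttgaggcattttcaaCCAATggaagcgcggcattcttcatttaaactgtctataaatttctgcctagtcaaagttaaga
CDC25B: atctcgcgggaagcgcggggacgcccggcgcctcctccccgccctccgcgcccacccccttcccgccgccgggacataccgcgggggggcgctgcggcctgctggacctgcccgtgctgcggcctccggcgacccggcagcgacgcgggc
KNSTRN: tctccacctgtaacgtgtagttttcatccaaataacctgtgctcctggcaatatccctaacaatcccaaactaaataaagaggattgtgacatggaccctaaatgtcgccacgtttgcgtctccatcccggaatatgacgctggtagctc
CCNB1: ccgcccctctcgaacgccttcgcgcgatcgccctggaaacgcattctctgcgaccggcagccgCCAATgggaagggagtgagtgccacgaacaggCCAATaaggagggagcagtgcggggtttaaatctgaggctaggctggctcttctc
CDK1: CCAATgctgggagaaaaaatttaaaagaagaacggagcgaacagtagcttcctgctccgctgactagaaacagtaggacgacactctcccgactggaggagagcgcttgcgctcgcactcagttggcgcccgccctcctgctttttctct
NEK2, NUSAP1 and CCNB1 each held 2 CCAAT matches and no CHR match in this stretch. CDC25B and KNSTRN held neither. NUSAP1 has a TTTGAA just past its start, and another of the 4 annotated starts of CDC25B has a TTCGAA and an ATTGG before it. A further start of CDK1, downstream of the one shown, has a TTTGAA directly before it.

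Within the list, log2 fold changes with palbociclib ran from -1.95 to -0.31 in genes with a match to TTTGAA or TTCGAA. In genes without such a match they ran from -1.98 to -0.49. Other spellings of the element were not searched, so a gene without a match may still hold one. The median log2 fold change with palbociclib was -1.34 in the 29 genes with a CHR match and -1.26 in the 11 without, and with GSK3326595 it was -0.84 and -0.67. NEK2 and AURKB, both without a match, were among the larger falls, and CKAP5 and INCENP, both with a match, were among the smaller. These medians are a description with no test.

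**Figure D2:**
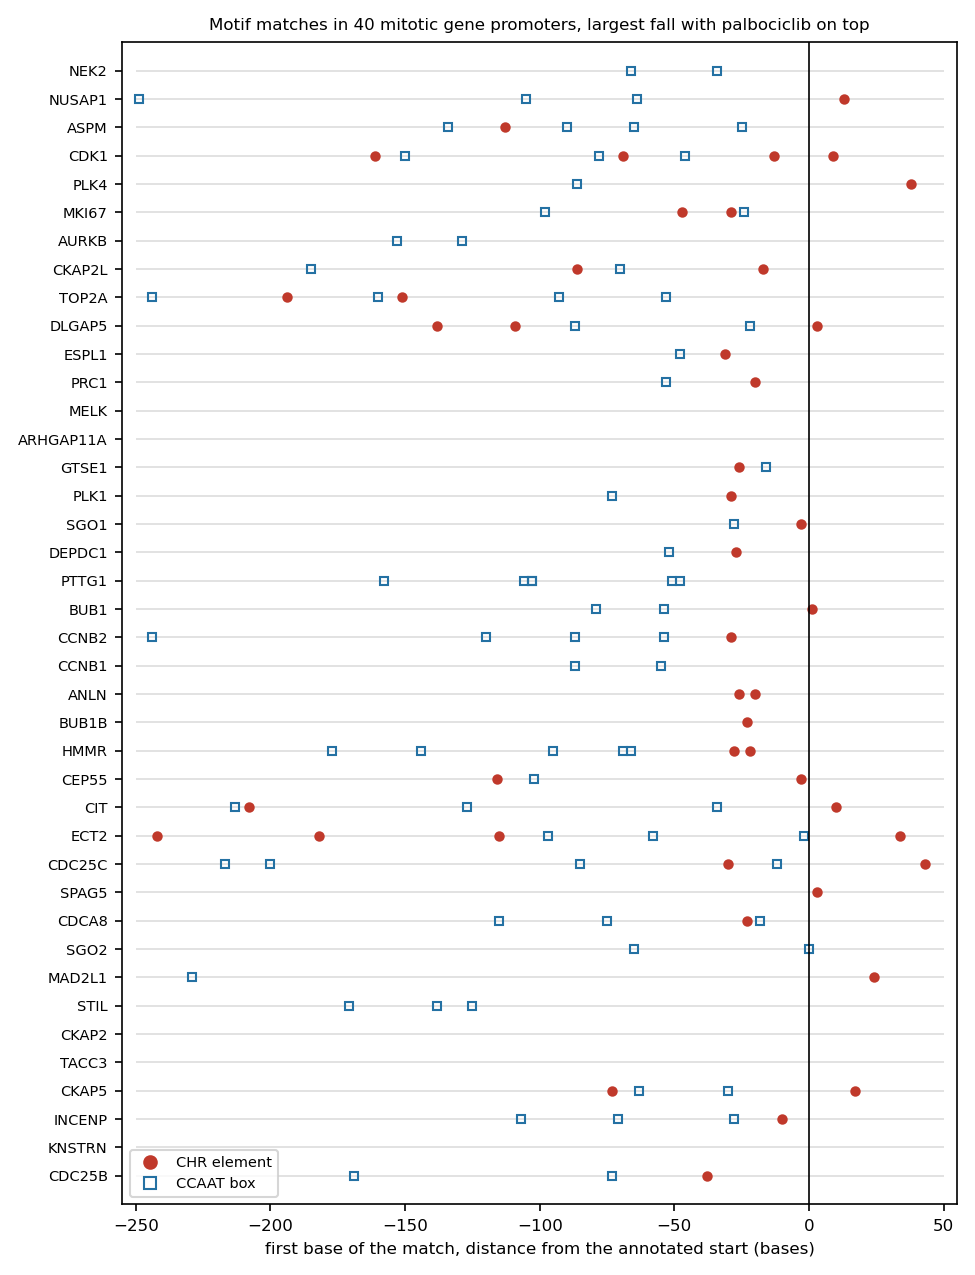
Position of CHR matches (filled circles) and CCAAT matches (open squares) relative to the annotated start in the promoters of 40 of the 48 genes, ordered from the largest fall with palbociclib (top) to the smallest. Matches of all annotated starts of a gene are drawn on its line; 13 genes have a CHR match beginning 15 to 35 bases before a start.

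The first role is mitotic entry, with 10 genes. All 10 fell with either inhibitor, with a median log2 fold change of -1.33 for palbociclib and -0.79 for GSK3326595. CDK1 (Gene ID 983; GRCh38 chromosome 10, 60778331 to 60794852) encodes the kinase that drives entry. It had 27.3 and 26.4 CPM with palbociclib, 54.4 and 47.4 CPM with GSK3326595, and 90.1 and 103 CPM in DMSO. The groups did not overlap, and palbociclib left 27.7% of the DMSO mean and GSK3326595 52.6%. Its log2 fold change was -1.85 ± 0.107 with palbociclib (SE, edgeR adjusted p = 2.17e-07) and -0.93 ± 0.103 with GSK3326595 (edgeR adjusted p = 0.000111). The SE is derived from the edgeR test, as the fold change divided by the root of its F.

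The B cyclins bind and activate CDK1. CCNB1 (Gene ID 891; GRCh38 chromosome 5, 69167150 to 69178245) had 96.2 and 102 CPM with palbociclib, 151 and 145 CPM with GSK3326595, and 215 and 260.4 CPM in DMSO, with log2 fold changes of -1.26 ± 0.100 with palbociclib and -0.68 ± 0.0987 with GSK3326595 (SE). CCNB2 was at -1.27 ± 0.114 with palbociclib and -0.76 ± 0.112 with GSK3326595. NEK2, a centrosomal kinase, had 14.3 and 15.03 CPM with palbociclib, 24.9 and 22.2 CPM with GSK3326595, and 53.6 and 61.9 CPM in DMSO. It showed the largest fall of all 48 genes in either comparison, at -1.98 ± 0.116 with palbociclib (edgeR adjusted p = 2.39e-07) and -1.30 ± 0.112 with GSK3326595 (edgeR adjusted p = 3.38e-05). PLK1, the Polo-like kinase of entry and spindle assembly, fell (log2 fold change -1.40 with palbociclib and -0.58 with GSK3326595). AURKA, the spindle pole Aurora kinase, had 56.8 and 61.4 CPM with palbociclib, 95.1 and 93.0 CPM with GSK3326595, and 122 and 136 CPM in DMSO. Its fall with GSK3326595, at -0.46 ± 0.0859 (edgeR adjusted p = 0.00357), was the smallest of the 10 entry genes. PBK and MELK, both kinase genes expressed in dividing cells, fell as well, PBK to log2 fold changes of -1.88 with palbociclib and -1.01 with GSK3326595, and MELK to -1.51 with palbociclib and -0.67 with GSK3326595.

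The phosphatase genes CDC25B and CDC25C complete the entry genes. CDC25B (Gene ID 994; GRCh38 chromosome 20, 3786951 to 3806115), which encodes a phosphatase that activates CDK1 at the centrosome, had 264 and 292 CPM with palbociclib, 191 and 197 CPM with GSK3326595, and 332 and 357 CPM in DMSO. Here the GSK3326595 libraries were the lowest and the palbociclib libraries lay between them and DMSO. The log2 fold change was -0.31 ± 0.0897 with palbociclib, the smallest of the 48 genes (edgeR adjusted p = 0.0169), and -0.83 ± 0.0906 with GSK3326595 (edgeR adjusted p = 0.000107). The palbociclib call did not hold when DMSO replicate 2 was left out (edgeR adjusted p = 0.157) or when palbociclib replicate 1 was (0.205). CDC25C, whose phosphatase acts on CDK1 with cyclin B, was the lowest gene of the list per length of its exons. It had 6.80 and 6.19 CPM with palbociclib, 6.58 and 5.65 CPM with GSK3326595, and 14.7 and 13.1 CPM in DMSO, and its fold changes were -1.09 ± 0.161 with palbociclib and -1.18 ± 0.165 with GSK3326595. The palbociclib and GSK3326595 libraries of CDC25C overlapped, both below DMSO.

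Of the 6 centriole and spindle pole genes, all fell with either inhibitor, with medians of -0.98 for palbociclib and -0.67 for GSK3326595. PLK4 (Gene ID 10733; GRCh38 chromosome 4, 127880893 to 127899224), the kinase that starts centriole duplication, had 13.3 and 10.7 CPM with palbociclib, 21.9 and 17.9 CPM with GSK3326595, and 45.0 and 41.1 CPM in DMSO. The 3 groups were separate, at fold changes of -1.84 ± 0.137 with palbociclib and -1.11 ± 0.132 with GSK3326595. ASPM, a spindle pole protein, had 128 and 123 CPM with palbociclib, 223 and 187 CPM with GSK3326595, and 483 and 492 CPM in DMSO. It was the second largest fall of the 48 genes with GSK3326595, at -1.25 ± 0.0982 (edgeR adjusted p = 2.01e-05), and was at -1.95 with palbociclib. CKAP5, the microtubule polymerase chTOG, had 289.6 and 289 CPM with palbociclib, 347 and 352 CPM with GSK3326595, and 456 and 481 CPM in DMSO. Its falls were the smallest of this role, at -0.69 ± 0.0865 with palbociclib and -0.42 ± 0.0862 with GSK3326595 (edgeR adjusted p = 0.00609), and the GSK3326595 call had an adjusted p of 0.0503 when DMSO replicate 2 was left out. TACC3, which binds CKAP5 at the spindle, was at -0.70 with palbociclib and -0.56 with GSK3326595, and STIL, a PLK4 partner in centriole duplication, at -0.88 with palbociclib and -0.71 with GSK3326595. SPAG5, a spindle protein also called astrin, had log2 fold changes of -1.07 with palbociclib and -0.62 with GSK3326595.

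Among 9 spindle microtubule proteins all fell, with medians of -1.41 for palbociclib and -0.74 for GSK3326595. TPX2 (Gene ID 22974; GRCh38 chromosome 20, 31739290 to 31801800), which activates AURKA on spindle microtubules, had 117 and 134 CPM with palbociclib, 183 and 193 CPM with GSK3326595, and 270.3 and 317 CPM in DMSO. Palbociclib left 42.7% and GSK3326595 64.0% of its DMSO mean. NUSAP1, a microtubule bundling protein, had 30.9 and 34.99 CPM with palbociclib, 63.5 and 60.5 CPM with GSK3326595, and 120.4 and 135 CPM in DMSO. It was the largest fall of this role for either inhibitor, at -1.95 ± 0.0984 with palbociclib and -1.04 ± 0.0949 with GSK3326595. KNSTRN, a partner of SPAG5 at the spindle, had 47.5 and 55.8 CPM with palbociclib, 52.1 and 50.2 CPM with GSK3326595, and 71.6 and 73.6 CPM in DMSO. The libraries of the 2 inhibitors overlapped, with fold changes of -0.49 ± 0.0971 with palbociclib and -0.504 ± 0.0978 with GSK3326595 (edgeR adjusted p = 0.00183 and 0.00438). DLGAP5, which stabilises spindle microtubules near chromosomes, was at -1.59 with palbociclib and -0.62 with GSK3326595. TROAP, CKAP2L, GTSE1, HMMR and CKAP2 lay between -1.78 and -0.86 with palbociclib and between -1.003 and -0.66 with GSK3326595.

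**Figure D3:**
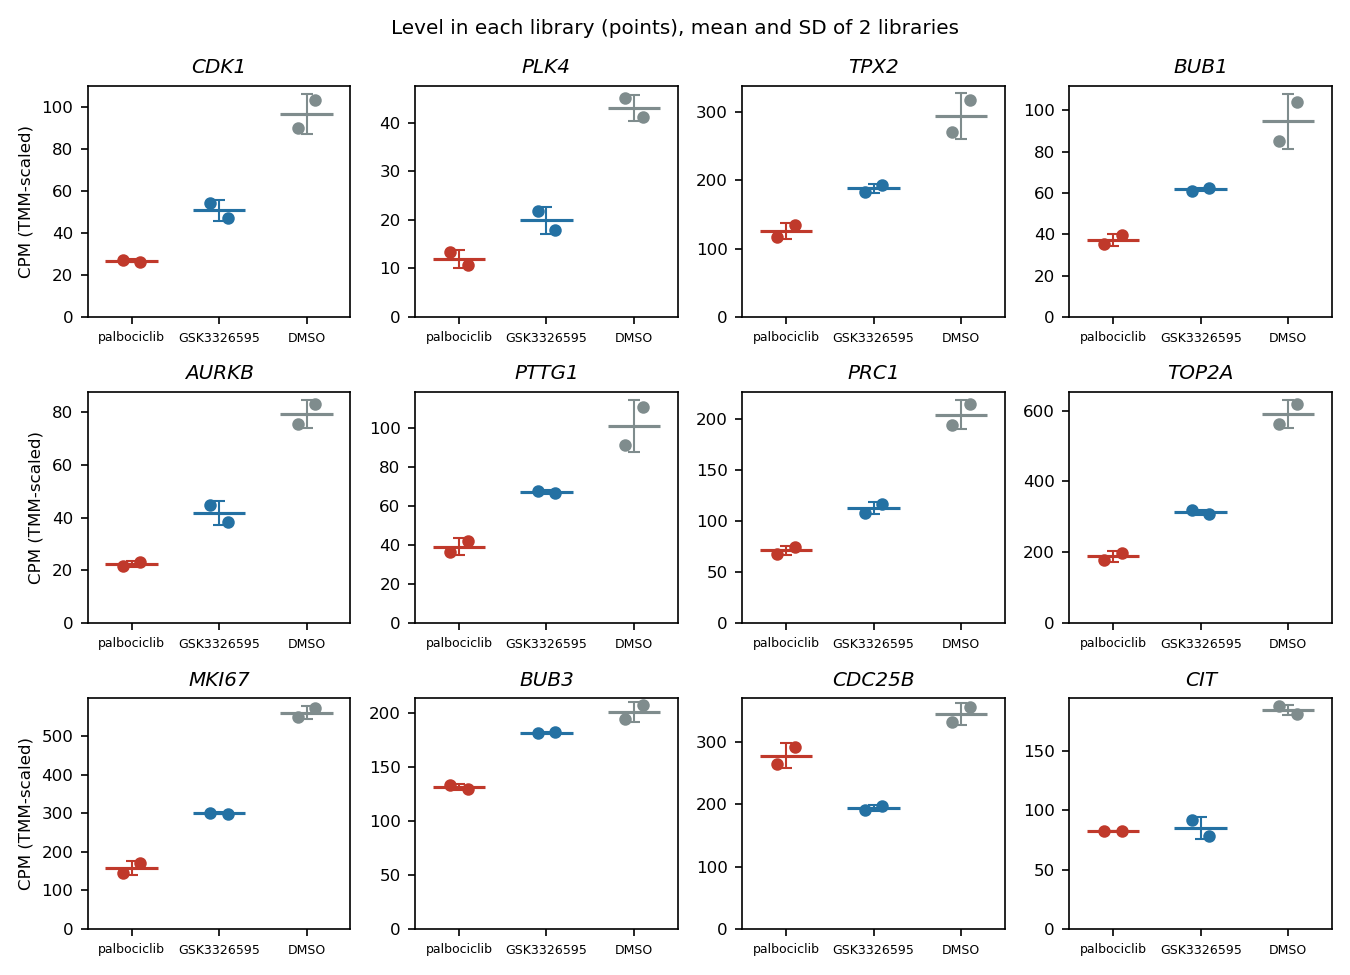
CPM of 12 genes in each library (points), with the mean and SD of the 2 libraries of a group, for palbociclib, GSK3326595 and DMSO. In most panels palbociclib is lowest; in CDC25B the GSK3326595 libraries, at 191 and 197 CPM, are below the palbociclib libraries, and in CIT the 2 inhibitors overlap.

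In the spindle assembly checkpoint, 5 of 5 genes fell with palbociclib and 4 of 5 with GSK3326595, with medians of -1.16 for palbociclib and -0.61 for GSK3326595. BUB1 (Gene ID 699; GRCh38 chromosome 2, 110637528 to 110678063), a checkpoint kinase, had 35.4 and 39.5 CPM with palbociclib, 61.1 and 62.4 CPM with GSK3326595, and 85.4 and 104 CPM in DMSO. Its fold changes were -1.34 ± 0.109 with palbociclib and -0.62 ± 0.106 with GSK3326595. BUB1B, which encodes the checkpoint protein BUBR1, had 38.6 and 41.2 CPM with palbociclib, 61.6 and 59.6 CPM with GSK3326595, and 85.6 and 102 CPM in DMSO, and fold changes of -1.23 ± 0.101 with palbociclib and -0.63 ± 0.0996 with GSK3326595. BUB1B shares its locus with the readthrough gene BUB1B-PAK6, so reads could be split between them. BUB3 (Gene ID 9184; GRCh38 chromosome 10, 123154402 to 123170467), which brings BUB1 and BUBR1 to kinetochores, had 134 and 129.8 CPM with palbociclib, 182 and 182 CPM with GSK3326595, and 195 and 208 CPM in DMSO. The palbociclib libraries were well below DMSO (-0.61 ± 0.0811, edgeR adjusted p = 0.000109). The GSK3326595 libraries were below both DMSO libraries but by little, at -0.14 ± 0.0807, and BUB3 was the gene not called in that comparison (edgeR adjusted p = 0.241). TTK, the checkpoint kinase MPS1, had log2 fold changes of -1.16 with palbociclib and -0.61 with GSK3326595. MAD2L1, the checkpoint inhibitor of CDC20, was at -0.94 with palbociclib and -0.47 with GSK3326595 (edgeR adjusted p = 0.0201). In a fit lacking DMSO replicate 2 the GSK3326595 value had an adjusted p of 0.203.

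The chromosomal passenger complex holds AURKB, INCENP, BIRC5 (survivin) and CDCA8 (borealin), and all 4 fell with either inhibitor. AURKB (Gene ID 9212; GRCh38 chromosome 17, 8204731 to 8210575), its kinase, had 21.4 and 23.2 CPM with palbociclib, 44.9 and 38.4 CPM with GSK3326595, and 75.4 and 82.9 CPM in DMSO. Palbociclib left 28.2% and GSK3326595 52.6% of the DMSO mean, at fold changes of -1.83 ± 0.110 with palbociclib and -0.93 ± 0.106 with GSK3326595. INCENP, the scaffold that binds and activates AURKB, had 92.5 and 103 CPM with palbociclib, 101 and 116 CPM with GSK3326595, and 148 and 164 CPM in DMSO. Its falls were the smallest of the complex, at -0.67 ± 0.0979 with palbociclib and -0.52 ± 0.0979 with GSK3326595. BIRC5 and CDCA8 lay between, at -1.26 ± 0.111 and -1.01 ± 0.111 with palbociclib and -0.56 ± 0.108 and -0.65 ± 0.110 with GSK3326595.

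All 4 genes of chromatid cohesion and separation fell, with medians of -1.38 for palbociclib and -0.74 for GSK3326595. PTTG1, which encodes securin, the inhibitor of separase, had 36.2 and 42.2 CPM with palbociclib, 67.8 and 66.6 CPM with GSK3326595, and 91.7 and 111 CPM in DMSO. ESPL1, which encodes separase itself, had 43.1 and 46.3 CPM with palbociclib, 74.3 and 73.6 CPM with GSK3326595, and 130.5 and 134 CPM in DMSO. Separase fell more than securin in either comparison, at -1.56 ± 0.0825 against -1.37 ± 0.110 with palbociclib and -0.84 ± 0.0805 against -0.59 ± 0.107 with GSK3326595, though the difference between the 2 genes was not tested. SGO1, the shugoshin that protects centromeric cohesin, had 13.2 and 13.1 CPM with palbociclib, 20.2 and 18.4 CPM with GSK3326595, and 33.9 and 35.1 CPM in DMSO, and fold changes of -1.39 ± 0.109 with palbociclib and -0.84 ± 0.106 with GSK3326595. SGO2, its paralogue, had 27.8 and 27.3 CPM with palbociclib, 35.8 and 34.9 CPM with GSK3326595, and 52.7 and 57.6 CPM in DMSO, and fold changes of -1.002 ± 0.0977 with palbociclib and -0.64 ± 0.0970 with GSK3326595. In SGO1 and SGO2 the palbociclib libraries were lowest and no groups overlapped.

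Cytokinesis genes fell in 7 of 7 cases with either inhibitor, with medians of -1.21 for palbociclib and -0.86 for GSK3326595. PRC1 (Gene ID 9055; GRCh38 chromosome 15, 90966040 to 90994535), which bundles the midzone microtubules, had 67.8 and 74.4 CPM with palbociclib, 108 and 117 CPM with GSK3326595, and 194 and 215 CPM in DMSO. It had log2 fold changes of -1.52 with palbociclib and -0.86 with GSK3326595. RACGAP1, the centralspindlin subunit that recruits ECT2, had 84.96 and 88.1 CPM with palbociclib, 112 and 112 CPM with GSK3326595, and 160.4 and 168 CPM in DMSO, and showed the smallest falls of this role at -0.92 ± 0.0788 with palbociclib and -0.55 ± 0.0783 with GSK3326595. ECT2, the exchange factor that activates RhoA at the midzone, was at -1.11 with palbociclib and -0.58 with GSK3326595. CIT (Gene ID 11113; GRCh38 chromosome 12, 119685791 to 119877320), the citron kinase of the contractile ring and midbody, had 82.4 and 82.9 CPM with palbociclib, 91.9 and 78.3 CPM with GSK3326595, and 188 and 182 CPM in DMSO. The palbociclib and GSK3326595 libraries overlapped and both were below DMSO, at fold changes of -1.16 ± 0.0905 with palbociclib and -1.12 ± 0.0908 with GSK3326595. CEP55, which recruits the abscission machinery to the midbody, had fold changes of -1.21 ± 0.105 with palbociclib and -1.05 ± 0.105 with GSK3326595. ANLN, the ring scaffold anillin, was at -1.23 with palbociclib and -0.89 with GSK3326595. ARHGAP11A, a RhoA GTPase activating protein, had log2 fold changes of -1.5002 with palbociclib and -0.78 with GSK3326595. Its partial copy ARHGAP11B had 3.81 and 4.46 CPM with palbociclib, 5.59 and 5.41 CPM with GSK3326595, and 10.5 and 9.36 CPM in DMSO. How reads shared by these copies were counted is not given in the sources used here.

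The remaining 3 genes fell too. TOP2A, the topoisomerase that untangles and shapes mitotic chromosomes, had 177 and 199 CPM with palbociclib, 318 and 307 CPM with GSK3326595, and 563 and 618 CPM in DMSO. MKI67, which coats mitotic chromosomes and marks cycling cells, had 144 and 171 CPM with palbociclib, 301 and 298 CPM with GSK3326595, and 549 and 572 CPM in DMSO. Palbociclib left 31.8% of TOP2A and 28.1% of MKI67, and GSK3326595 left 52.9% and 53.5%. DEPDC1, a gene expressed in dividing cells, had 39.995 and 44.4 CPM with palbociclib, 67.8 and 58.0 CPM with GSK3326595, and 101 and 119 CPM in DMSO, with fold changes of -1.38 ± 0.110 with palbociclib and -0.81 ± 0.109 with GSK3326595. Per kilobase of GENCODE v29 exons, CCNB1 and TOP2A were the highest of the 48 genes in DMSO, at 92.9 and 91.8 CPM per kb, and CDC25C the lowest, at 4.16 CPM per kb.

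The direct comparison of palbociclib with GSK3326595 showed lower levels with palbociclib in most of the list. With edgeR 39 of 48 genes were called lower with palbociclib, where 18.2% of all genes tested were, and 1 was called higher, where 16.6% were. The other 8 were not called. The median log2 fold change was -0.58, beside -0.03 over all genes tested, and no gene of the list was called lower by a log2 of 1 or more, where 2.33% of all genes were. Both palbociclib libraries were below both GSK3326595 libraries in 43 genes (35.7% of all genes tested) and above them in 1, CDC25B (31.8%), and 4 genes overlapped. The 2 drugs were each given at a single dose, so the comparison holds for those doses.

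The 4 largest called differences were those of DLGAP5, MKI67, CDK1 and NUSAP1. DLGAP5 had 24.1 and 26.4 CPM with palbociclib, 52.4 and 46.7 CPM with GSK3326595, and 71.8 and 80.7 CPM in DMSO. Its difference was -0.97 ± 0.107 (SE, edgeR adjusted p = 5.68e-05). MKI67 was at -0.93 ± 0.0992, CDK1 at -0.92 ± 0.107 and NUSAP1 at -0.91 ± 0.0988 on the same log2 scale, palbociclib over GSK3326595. AURKB followed at -0.90 ± 0.111, and PBK, MELK and PLK1 were between -0.87 and -0.82. CDC25B was the gene called higher with palbociclib than with GSK3326595, at 0.52 ± 0.0904 (SE, edgeR adjusted p = 0.00101).

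The 8 genes without a call came from 5 of the 8 roles. CIT, CEP55, KNSTRN and CDC25C differed by -0.04 ± 0.0913, -0.15 ± 0.107, 0.01 ± 0.0984 and 0.09 ± 0.174. CKAP2, STIL, INCENP and TACC3 differed by -0.19 ± 0.0940, -0.17 ± 0.0941, -0.15 ± 0.0985 and -0.13 ± 0.0837. A value without a call does not show that the inhibitors acted alike on these genes. All 5 checkpoint genes and all 4 cohesion and separation genes were called lower with palbociclib, including BUB3 at -0.47 ± 0.0812 (edgeR adjusted p = 0.00105). Among the smaller called differences, that of CKAP5 (-0.27 ± 0.0864, edgeR adjusted p = 0.0273) was lost when any of the 6 libraries was left out, with adjusted p between 0.0566 and 0.173. The call was also lost for CCNB2, SGO2, CDCA8, ANLN and RACGAP1 without palbociclib replicate 1 (adjusted p between 0.0605 and 0.268), for MAD2L1 and SGO2 without palbociclib replicate 2 (0.102 for either), and for HMMR, SGO2, CDCA8 and ANLN without GSK3326595 replicate 1 (between 0.0531 and 0.0729).

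**Figure D4:**
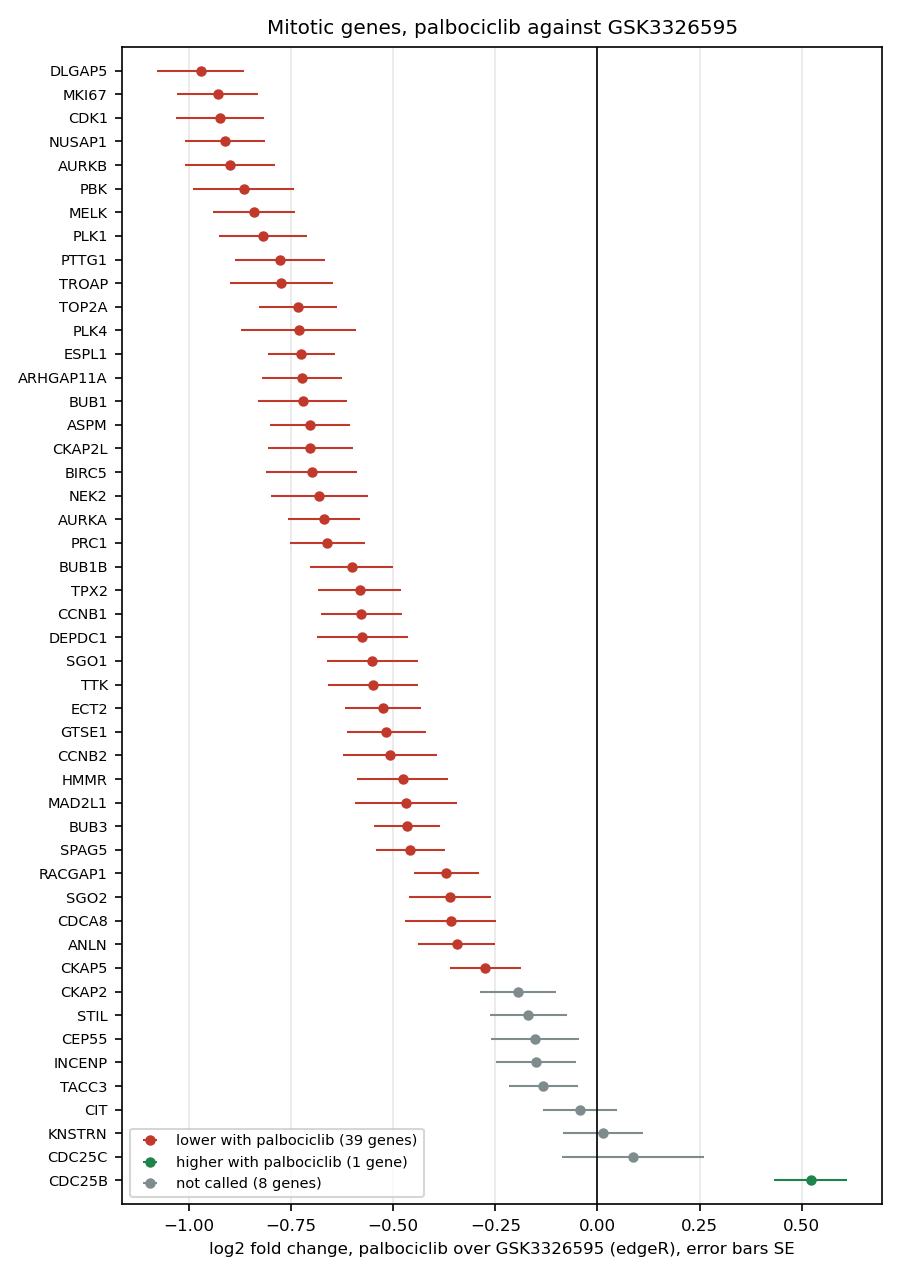
Log2 fold change of palbociclib over GSK3326595 (horizontal axis) for the 48 genes, with SE, ordered from the most negative. The 39 genes called lower run from DLGAP5 at -0.97 to CKAP5 at -0.27, 8 are not called, and CDC25B at 0.52 is higher with palbociclib.

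Another 40 mitotic regulators outside the list were read for comparison. With palbociclib 30 of the 40 fell, 1 rose and 9 had no call, at a median log2 fold change of -0.77. With GSK3326595 20 fell, 1 rose and 19 had no call, at a median of -0.34. Of all genes tested, 20.2% were called lower and 19.3% higher with palbociclib, and 10.2% and 8.58% with GSK3326595. Those shares also stand beside the counts of each group of the 40 below. Of 9 other entry regulators 8 fell with palbociclib and 6 with GSK3326595. Cyclin A2 (CCNA2), the cyclin of S phase and G2, had 22.2 and 26.9 CPM with palbociclib, 49.5 and 47.7 CPM with GSK3326595, and 92.0 and 114 CPM in DMSO. PKMYT1, a kinase that holds CDK1 inactive, was at -1.65 with palbociclib and -1.10 with GSK3326595. ENSA, an inhibitor of the phosphatase that opposes CDK1, was not called in either comparison (-0.14 ± 0.101 with palbociclib and -0.13 ± 0.101 with GSK3326595).

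In the transcription group of 7 genes, 6 fell and 1 rose with palbociclib, and 4 fell with GSK3326595. MYBL2, the activator that joins MuvB in G2, was at -2.08 with palbociclib and -0.90 with GSK3326595, and FOXM1 at -1.52 with palbociclib and -0.98 with GSK3326595. LIN37, a MuvB subunit needed for repression by DREAM, was the gene that rose with palbociclib. It had 10.3 and 10.3 CPM with palbociclib, 7.80 and 8.44 CPM with GSK3326595, and 6.74 and 6.76 CPM in DMSO. The palbociclib libraries were the highest, at 0.61 ± 0.155 on the log2 scale (SE, edgeR adjusted p = 0.00853), and the GSK3326595 value of 0.27 ± 0.160 was not called (edgeR adjusted p = 0.276). The palbociclib call of LIN37 was lost without palbociclib replicate 1 (adjusted p = 0.0546) or replicate 2 (0.0564).

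All 5 regulators of the anaphase-promoting complex fell with palbociclib and 3 with GSK3326595. FBXO5, the inhibitor of that complex also called EMI1, had log2 fold changes of -1.804 with palbociclib and -0.97 with GSK3326595, and FZR1, its G1 activator, was at -0.27 ± 0.0834 with palbociclib and -0.22 ± 0.0837 with GSK3326595, where it was not called. The palbociclib call of FZR1 was absent in DESeq2 (adjusted p = 0.0717) and when either DMSO or either palbociclib library was left out (edgeR adjusted p between 0.0742 and 0.155). UBE2S, an E2 enzyme of the complex, was at -0.78 with palbociclib and -0.14 ± 0.120 with GSK3326595, where it was not called. Of 12 augmin and other spindle genes 8 fell with palbociclib and 6 with GSK3326595, with medians of -0.59 for palbociclib and -0.31 for GSK3326595. Augmin branches spindle microtubules, and its subunit HAUS5 was at -1.08 with palbociclib and HAUS4 at -0.87 with GSK3326595. With GSK3326595 the count was 5 in DESeq2, where HAUS1 had an adjusted p of 0.113, and 2 without DMSO replicate 2. CLASP1, a microtubule-stabilising protein, was not called in either comparison (0.20 ± 0.0780 with palbociclib and 0.00 ± 0.0785 with GSK3326595). NUMA1, which anchors dynein at spindle poles, was not called in either (-0.16 ± 0.0819 with palbociclib and 0.08 ± 0.0819 with GSK3326595).

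The 7 remaining cytokinesis proteins, which also act outside mitosis, had the medians nearest 0. They include RHOA, the nonmuscle myosins MYH9 and MYH10 and 2 septins. With palbociclib 3 of the 7 fell, beside 20.2% of all genes tested. With GSK3326595 1 fell, MYH10, at -0.5002, beside 10.2% of all genes tested, so this count is near the share of all genes. The 3 that fell with palbociclib were MYH10 (-0.54 ± 0.0795, edgeR adjusted p = 0.000226), SEPTIN7 (-0.51 ± 0.103, 0.0021) and RHOA (-0.33 ± 0.0990, 0.0184). The RHOA call was lost without DMSO replicate 2 (-0.21), palbociclib replicate 1 (-0.35) or palbociclib replicate 2 (-0.31). PDCD6IP, the abscission protein ALIX, named because it was the single gene of the 40 that rose with GSK3326595, was at 0.31 ± 0.0835 (edgeR adjusted p = 0.0218). That call was lost when any library but GSK3326595 replicate 1 was left out (adjusted p between 0.0515 and 0.140). CHMP4B, an ESCRT-III subunit of abscission, had the highest values of the 7 but no call (0.26 ± 0.127 with palbociclib and 0.34 ± 0.128 with GSK3326595). The medians of the 7 were -0.10 with palbociclib and 0.03 with GSK3326595. In palbociclib against GSK3326595, 25 of the 40 regulators were called lower with palbociclib and none higher. Of all genes tested, 18.2% were called lower and 16.6% higher in that comparison. DESeq2 called 21 of the 40 lower, and leaving out any library also lowered the count. The lowest value of each group was that of MYBL2 (-1.18 ± 0.151), CCNA2 (-0.98 ± 0.126), FBXO5 (-0.84 ± 0.124), HAUS7 (-0.80 ± 0.127) and RHOA (-0.37 ± 0.0990), all called. This RHOA call was lost without palbociclib replicate 1 (-0.39), palbociclib replicate 2 (-0.34) or GSK3326595 replicate 2 (-0.29). The highest was that of LIN37 (0.34 ± 0.154), ENSA (-0.0018 ± 0.101), FZR1 (-0.05 ± 0.0839), CLASP1 (0.19 ± 0.0781) and MYH10 (-0.04 ± 0.0797), none called. Among mitotic genes of other kinds, 13 of 13 kinesins and 23 of 23 kinetochore genes fell with palbociclib (medians -1.48 and -1.40), beside 20.2% of all genes. With GSK3326595 13 of 13 kinesins and 20 of 23 kinetochore genes fell (medians -0.84 and -0.72), beside 10.2% of all genes. In DESeq2 19 of the 23 kinetochore genes fell with GSK3326595, where NSL1 had an adjusted p of 0.0584. Without DMSO replicate 2 more kinetochore calls were lost. With GSK3326595 these were SPC25 (-0.90), CENPM (-0.48), SKA1 (-0.43) and NSL1 (-0.39), and with palbociclib CENPW (-0.44) and ZWILCH (-0.28). Without that library the GSK3326595 call of the kinesin KIF18A (-0.38) was lost as well. No test was made between lists.

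**Figure D5:**
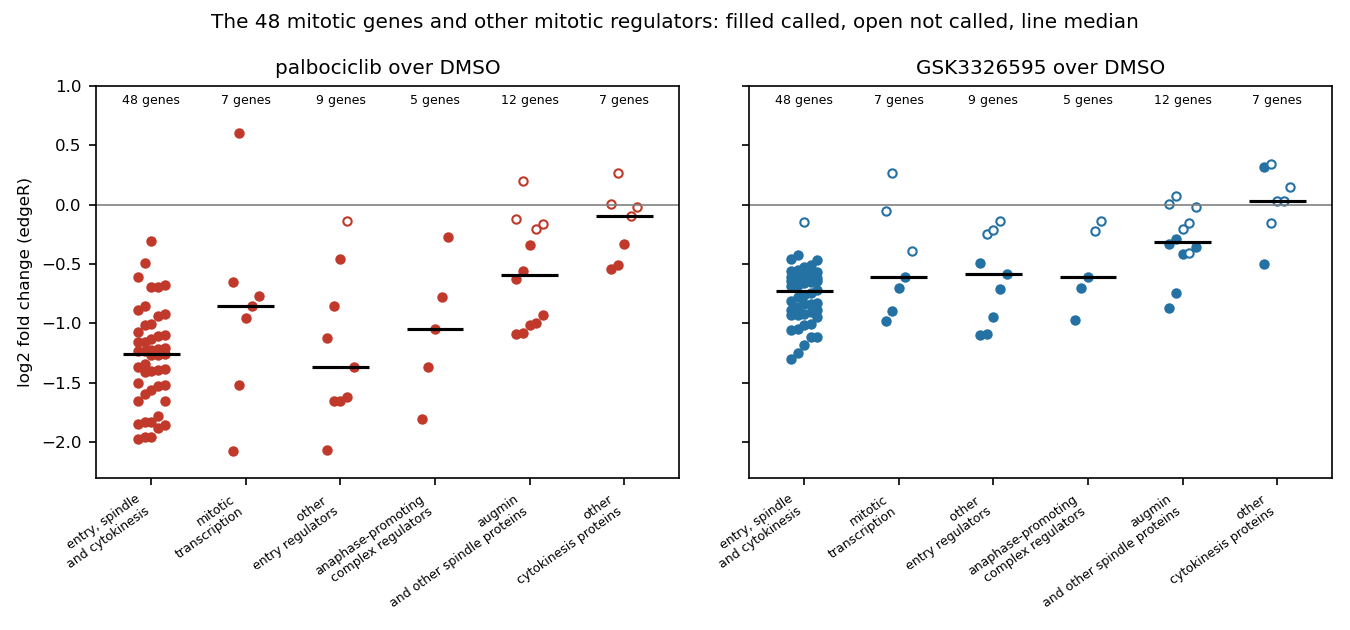
Log2 fold change over DMSO of the 48 genes and of 5 groups of other mitotic regulators (7, 9, 5, 12 and 7 genes), for palbociclib (left) and GSK3326595 (right); filled points passed an edgeR adjusted p of 0.05, open points did not, and lines are medians. The medians of the 48 genes are -1.26 and -0.73, and those of the general cytokinesis proteins -0.10 and 0.03.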

How the data were processed

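Total RNA of A375 cells was depleted of ribosomal RNA and sequenced on TruSeq libraries, per the labels' protocols. The deposited values are raw counts per NCBI Gene ID, 1 table per library. The submitters' processing notes name the build hg38 and the tools featureCounts 1.6.2, HISAT2, CASAVA 1.8.2, limma and cutadapt 1.7. No source used here gives the annotation, strand setting or treatment of shared reads, so overlapping, antisense and copied genes are uncertain. Names were found for 27745 of 28395 IDs. The other 650 held 0.233% to 0.508% of counts.

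Genes were filtered with filterByExpr (minimum count 10) and scaled by TMM. All 6 libraries entered 1 fit of edgeR 4.0.16 (R 4.3.3) with 3 residual degrees of freedom. The quasi-likelihood fit also draws on the spread of other genes, so a p-value does not rest on a gene's own libraries alone. The quasi-likelihood test was adjusted by Benjamini-Hochberg over 16381 genes, and an adjusted p under 0.05 is a call. DESeq2 1.42.0, other scalings and filters, a replicate block and leaving out each library were alternatives. On simulated counts for 16085 genes, falls by a log2 of 1 were recovered in 80.0% of cases for palbociclib and 75.5% for GSK3326595, and 8.02% and 14.0% of calls were false. Both false shares were above the threshold of 0.05. The simulation changed 200 genes in each comparison, far fewer than were called in the data (6470 and 3081). Its false shares therefore do not give the share of false calls among those reported here. The 2 libraries of each group differed beyond sampling noise (chi-square per degree of freedom 5.12 to 9.90).

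The 48 genes, their roles and the other lists were chosen with earlier results of these data known. In each role, library values are given for the first gene listed and for the genes of the largest and smallest fall in each comparison with DMSO. In the direct comparison the 4 largest called differences in each direction are named, and in each list of other regulators the lowest and highest fold change of each comparison. Other genes named beyond this were chosen after their values were seen. Exon lengths are from GENCODE v29. Levels are in 3 groups of 2 libraries, and their number limits precision.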

Additional observations from a re-analysis of the deposited data

How the results depend on the processing

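Of 624 values of single genes under alternatives in each comparison, 622 for palbociclib against DMSO, 622 for GSK3326595 against DMSO and 601 for palbociclib against GSK3326595 kept their direction and their side of the threshold. In the direct comparison 17 calls were lost, 2 were gained, both in CKAP2 (adjusted p = 0.0288 with the replicate block and 0.0447 without GSK3326595 replicate 2, edgeR), and 4 uncalled values changed sign. Leaving out 1 library at a time, CDC25C ran from -0.017 to 0.21, KNSTRN from -0.11 to 0.13 and CIT from -0.15 to 0.088; the changed signs were those of CDC25C and KNSTRN (-0.011) without GSK3326595 replicate 2, KNSTRN without palbociclib replicate 2 and CIT without GSK3326595 replicate 1. The cause was not tested. With DESeq2, other scalings and other filters, no call of the 48 genes was lost.

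Leaving out 1 library at a time, 47 to 48, 45 to 47 and 33 to 39 of the 48 genes were called lower for palbociclib against DMSO, GSK3326595 against DMSO and palbociclib against GSK3326595. Their medians ran from -1.37 to -1.16, from -0.84 to -0.64 and from -0.62 to -0.53. Over all genes, 4007 to 7260, 1765 to 3230 and 3310 to 5542 were called, with fewer libraries in each fit. The replicate block called 5769 genes for GSK3326595 against DMSO, where 3081 were called without it, and 48, 47 and 40 of the 48 genes as lower. Over all genes tested, same-numbered libraries deviated together, but the labels do not say what the number shares. The r was 0.18 for DMSO with palbociclib, 0.34 for DMSO with GSK3326595 and 0.14 for palbociclib with GSK3326595. The 48 genes did not follow this throughout. Replicate 2 was the higher in 44 of them in DMSO, 34 with palbociclib and 11 with GSK3326595. In a shorter window, the 150 bases before a start, 21 of the 40 genes (52.5%) held a CHR match, beside 7.34% of other genes tested and 9.72% of all genes in the table. Over all alternatives 27 to 32 of the 40 other regulators were called lower with palbociclib and 15 to 24 with GSK3326595. Groups of 2 libraries were too small to look for a library that stood apart.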

Other observations

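A few genes that overlap, neighbour or copy one of the 48 genes were read because strand and shared reads could move counts between them. PRC1-AS1, antisense to PRC1, had 0.457 and 0.528 CPM with palbociclib, 0.815 and 0.873 CPM with GSK3326595, and 2.17 and 1.61 CPM in DMSO. TROAP-AS1, antisense to TROAP, had 0.254 and 0.384 CPM with palbociclib, 1.51 and 0.524 CPM with GSK3326595, and 2.34 and 1.51 CPM in DMSO. Both antisense genes were lower with palbociclib than in DMSO. With GSK3326595 PRC1-AS1 was called lower too (-1.16 ± 0.355, SE, edgeR adjusted p = 0.0408), and TROAP-AS1 was not called (-0.91 ± 0.451, edgeR adjusted p = 0.186). How much of these falls is reads of PRC1 and TROAP was not tested. SPAG5-AS1 was not called in either comparison (edgeR adjusted p = 0.934 and 0.176), while SPAG5 fell in both. ESCO2, which overlaps PBK on the opposite strand, fell with palbociclib (log2 fold change -1.58 ± 0.169, SE, edgeR adjusted p = 2.14e-05) and with GSK3326595 (-0.97 ± 0.165, edgeR adjusted p = 0.00193), as PBK did. KCTD18, which overlaps SGO2 on the opposite strand, was not called in either comparison. FAM53C, which overlaps CDC25C on the opposite strand, rose with palbociclib (log2 fold change 0.32 ± 0.0814, SE, edgeR adjusted p = 0.00846), where CDC25C fell. AURKAP1, a pseudogene of AURKA, was not called in either comparison.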
